A study of Mus musculus with 6 samples.

Results

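The 10 genes described here are immediate-early genes, a class that cells transcribe within minutes of a stimulus without first making new protein. They are Fos, Fosb, Jun, Junb, Jund, Egr1, Ier2, Dusp1, Klf2 and Klf6, and they were taken with every probe set that the platform annotation pairs with that gene alone, which gave 16 of 45037 probe sets. All 10 genes were measured, among 18193 genes with such a probe set. The arrays came from long-term haematopoietic stem cells of mouse bone marrow, 3 from mice labelled Irf8 knockout (Irf8-/-) and 3 from wildtype mice (Irf8+/+). Irf8 encodes a transcription factor of the interferon regulatory family that monocytes and dendritic cells need to form. The sources used here do not give the knockout allele, the strain or the sex of the mice. Xist, which female cells transcribe, was above a log2 level of 10 on knockout replicate 1 and wildtype replicate 3 and not on the other 4 arrays, so each group had 1 such array. The labels place every sample at 3 weeks with no treatment and do not say whether 3 weeks is the age of the mice. They call the samples biological replicates without naming animals, so p-values set each difference against the spread between these samples.

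The cells were sorted as negative for lineage markers and CD48 and positive for Sca-1, c-kit and CD150, straight into lysis buffer. The values are log2 expression on Affymetrix mouse whole-genome arrays, and their precision is limited by how few arrays there are. Array medians lay between 4.85 and 4.96. Irf8 itself read 4.91, 6.39 and 6.50 in the knockout arrays and 4.98, 6.43 and 5.16 in the wildtype arrays for its brighter probe set. The position of that probe set relative to the deleted part is not known here, so it does not check the labels, and every direction below refers to the arrays as labelled. Kit read between 8.09 and 10.46 over all arrays and Slamf1, which encodes CD150, between 4.71 and 9.11. Both were lowest in knockout replicate 3. Ly6a, the gene for Sca-1, was not among the genes measured. Cd48, which the sort removes at the surface, read 7.60, 9.42 and 3.55 in knockout arrays and 4.54, 4.31 and 3.13 in wildtype arrays. All 11 measured neutrophil markers had a mean above wildtype in knockout, beside 10293 of all 18193 genes. They averaged 8.94, 9.09 and 12.01 in knockout arrays and 7.81, 8.03 and 6.76 in wildtype arrays. Knockout replicate 3, the highest, also had the lowest mean correlation with the other arrays, 0.845. In such bulk samples, fewer cells of a type and less RNA per cell cannot be told apart.

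Serum factors, cytokines and stress activate MAP kinases, which switch on serum response factor with its ETS partners and CREB at the promoters of these genes. Fos and Jun proteins pair through leucine zippers to form the transcription factor AP-1, Egr1 is a zinc finger transcription factor, and Dusp1 is a phosphatase that shuts the MAP kinases off again. The messages are short-lived, and they are known to appear when tissue is dissociated and cells are sorted. In long-term stem cells several of them, among them Egr1, are also linked to the resting state.

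The immediate-early genes were bright in all 6 arrays, and none passed the test between genotypes. In every array all 10 members lay above the median gene and 7 or 8 lay above the 90th percentile, and the median member stood between percentiles 97.85 and 99.30 of the genes of its array. These ranks describe probe set brightness and do not order the genes against each other. Between genotypes 0 of the 10 genes passed limma with Benjamini-Hochberg adjustment at 0.05, beside 0 of all 18193 genes (0%); at an unadjusted p under 0.05 there was 1 member, Klf2, beside 880 genes (4.84%), or 2.4% in the direction higher in knockout. The members' median difference, knockout minus wildtype, was 0.24 on the log2 scale, beside 0.07 over all genes and -0.05 over genes above the median level. The difference was above 0 for 8 members and below 0 for 2, and the members ranged from -0.15 for Ier2 to 1.33 for Klf2. As background, it was above 0 for 10293 of all 18193 genes and for 4282 of the 9096 above the median level. Without knockout replicate 2 the members' median was 0.11, beside 0.12 over all genes.

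**Figure D1:**
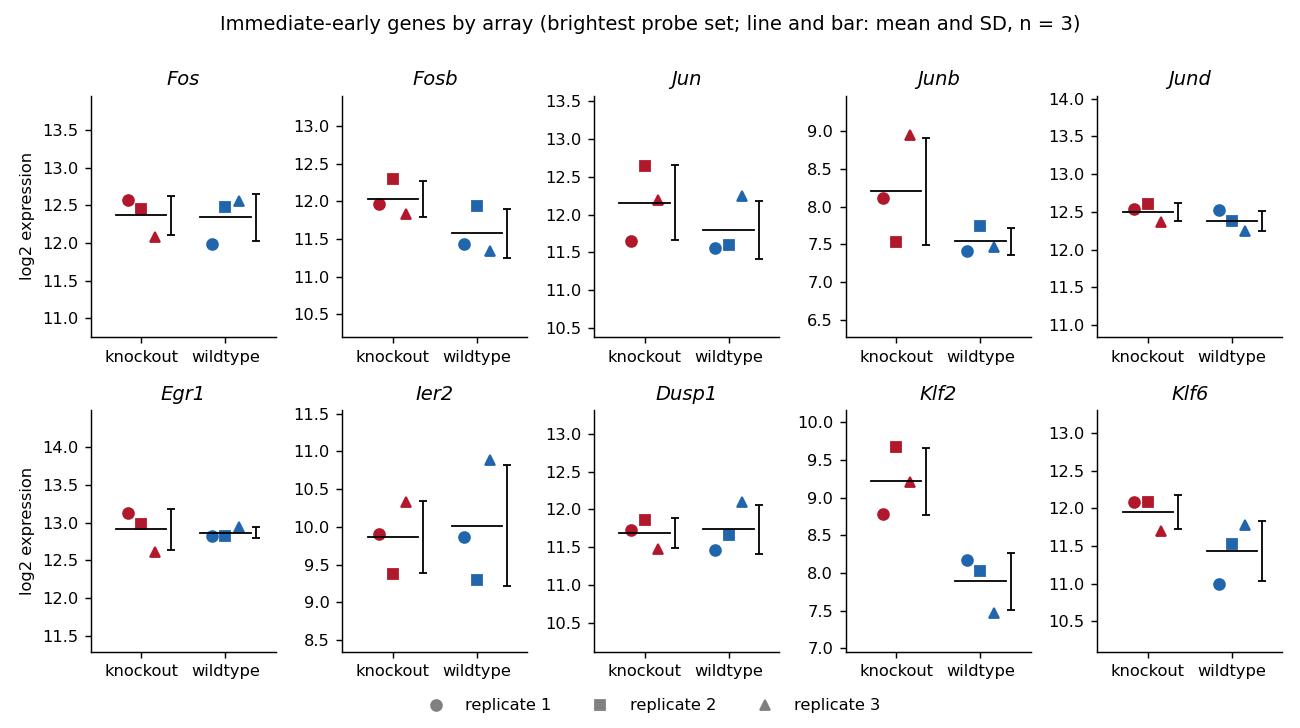
Log2 expression of the 10 genes on each array, knockout left of wildtype, with the brightest probe set standing for the gene and every panel spanning the same log2 range. Horizontal lines mark group means and bars the SD (n = 3 each); Klf2 is the 1 gene whose knockout arrays, from 8.78 to 9.67, all lie above its wildtype arrays, from 7.47 to 8.17.

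Klf2 encodes a Krüppel-like zinc finger factor known to hold lymphocytes in quiescence and to keep endothelium unactivated. It was the member with the largest difference. It read 8.78, 9.67 and 9.20 in knockout arrays, against 8.17, 8.03 and 7.47 in wildtype arrays. Every knockout array lay above every wildtype array, and the gap between the nearest arrays of the 2 groups was smaller than the range within either group. The means were 9.22 ± 0.44 in knockout and 7.89 ± 0.38 in wildtype (SD, n = 3 each). They differed by 1.33 (standard error, SE, 0.50; 95% interval 0.14 to 2.52). The adjusted p was 0.887 in limma (unadjusted p = 0.034), so the difference did not pass. Groups did not overlap for 1 of 10 members, beside 10.9% of all genes, and in the direction higher in knockout that share was 6.67%. Among genes above the median level, as all members are, 4.89% were higher and 6.3% lower without overlap. The count of 1 in 10 is near that background. It was 5 without knockout replicate 3 (Fosb, Jund, Egr1, Klf2 and Klf6), 3 without wildtype replicate 2 or without wildtype replicate 3, and 2 without knockout replicate 2, settings in which 20.2 to 24.0% of all genes did not overlap. The difference stayed between 1.10 and 1.55 in the 15 other settings tried, and was 1.34 without knockout replicate 3. Lymphocyte and endothelial cells are known to hold much Klf2. The 5 measured T and NK cell markers averaged 4.62 to 5.08 in knockout arrays and 4.61 to 4.75 in wildtype arrays. Over all arrays Cd3e lay between 2.74 and 3.51 and Nkg7 between 7.69 and 9.05. Of the 5, 3 differed above 0 and 2 below. Ncr1 was higher in knockout without overlap, at 3.71, 3.95 and 4.20 against 3.58, 3.40 and 3.63. The mean level of Ncr1, 3.74, was under the median gene level of 5.81. The 4 measured B cell markers averaged 5.50 to 6.22 in knockout and 5.73 to 6.43 in wildtype, with Cd79b between 6.50 and 9.69. The 5 stromal and endothelial markers averaged 5.51 to 6.28 in knockout and 5.23 to 6.67 in wildtype. Among them Kdr lay between 3.31 and 4.13 and Emcn between 5.95 and 9.20. The part of these cells, and of the higher Cd48 in knockout replicates 1 and 2, in the Klf2 difference was not tested.

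Klf6, a related Krüppel-like factor that was found as an injury-induced gene, had 5 probe sets, and they did not give the same direction. The brightest read 12.09, 12.09 and 11.70 in knockout arrays, against 11.003, 11.53 and 11.78 in wildtype arrays. Knockout replicate 3 lay below wildtype replicate 3, and the groups overlapped. The difference was 0.52 (SE 0.24, 95% interval -0.06 to 1.10) with an adjusted p of 0.887, and it was 0.30 without wildtype replicate 1. In order of falling brightness the other 4 probe sets differed by 0.67, 0.35, -0.40 and -0.16. On the one at -0.40 the arrays read 7.08, 9.70 and 7.80 in knockout and 8.46, 8.29 and 9.02 in wildtype, so knockout replicate 1, at the top of the brightest probe set, was the lowest here. The probe sets at 0.35 and -0.16 are of design types open to cross-hybridisation. With the mean of the 5 probe sets the Klf6 difference was 0.19.

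To show what the start regions of such genes hold, the 250 bases before the start are given below for Klf2, the member without overlap between groups, and for Fos and Dusp1, bright members whose differences were near 0. The sequences are RefSeq's, on GRCm38.p6, at chr8:72318812-72319061 on the plus strand for Klf2, chr12:85473640-85473889 on the plus strand for Fos and chr17:26508473-26508722 on the minus strand for Dusp1, written 5′ to 3′ along the gene. Capitals mark TGACG, the core of the CREB site on either strand, and in Dusp1 also the whole palindrome TGACGTCA that contains it.
Klf2: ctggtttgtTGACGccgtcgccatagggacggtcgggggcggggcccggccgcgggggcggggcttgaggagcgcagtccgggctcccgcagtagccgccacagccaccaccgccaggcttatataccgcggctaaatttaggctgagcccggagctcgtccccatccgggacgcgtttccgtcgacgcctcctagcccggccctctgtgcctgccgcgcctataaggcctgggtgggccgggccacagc
Fos: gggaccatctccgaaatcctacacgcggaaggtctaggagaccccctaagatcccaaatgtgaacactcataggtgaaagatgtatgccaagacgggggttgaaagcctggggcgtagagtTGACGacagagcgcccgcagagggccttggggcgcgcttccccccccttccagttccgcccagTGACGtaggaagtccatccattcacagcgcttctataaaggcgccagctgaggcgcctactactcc
Dusp1: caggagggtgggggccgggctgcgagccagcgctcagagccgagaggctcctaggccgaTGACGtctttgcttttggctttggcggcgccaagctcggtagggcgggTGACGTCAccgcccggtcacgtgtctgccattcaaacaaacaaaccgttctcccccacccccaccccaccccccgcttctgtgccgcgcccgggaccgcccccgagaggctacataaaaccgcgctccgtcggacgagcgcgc
The core TGACG, a motif chosen after these sequences had been read, was found in 5 of the 8 members with a sequence in the table (Fos, Fosb, Junb, Dusp1 and Klf2), beside 17.8% of all 32851 start regions of that length. G and C made up 47.6% (Jund) to 71.2% (Klf2) of the members' windows. The regions behind each background share were not matched to them for this, so the shares do not show enrichment. The whole palindrome was in Dusp1 only among the 8, beside 1.55% of all regions. GCGNGGGCG, the letters that EGR proteins bind, was in Fosb and Klf2, beside 4.70% of all regions, and overlapped there with GGGCGG, the SP1 letters, which 6 of the 8 and 32.7% of all regions held. TATAAA was in Fos, 33 to 28 bases before the start, and in 12.4% of all regions. The CArG box, bound by serum response factor, and TGANTCA, bound by AP-1, were in 0 of the 8 windows, beside 1.47% and 6.75% of all. These are letter matches on both strands, not measured binding, and windows of this length leave out elements farther from the start. Variants of the patterns were not searched, and TGACATCA, a variant of TGACGTCA, stands in the Jun and Klf6 windows. The Fosb window, unlike those of the other members, does not end at the annotated start of its gene. A link between these motifs and the genotype differences was not tested.

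Fos proteins need a Jun partner to bind DNA well. Fos read 12.57, 12.46 and 12.07 in knockout arrays, against 11.99, 12.48 and 12.56 in wildtype arrays. The groups overlapped, with knockout replicate 3 and wildtype replicate 1 low. The difference was 0.02 (SE 0.20, 95% interval -0.46 to 0.51), and its sign turned when knockout replicate 1, knockout replicate 2 or wildtype replicate 1 was left out. Fosb, a close relative of Fos, read 11.97, 12.29 and 11.83 in knockout arrays, against 11.43, 11.94 and 11.34 in wildtype arrays. Knockout replicate 3 lay just under wildtype replicate 2, and the other 2 wildtype arrays lay below all knockout arrays. The difference was 0.45 (SE 0.22, 95% interval -0.07 to 0.98), with an adjusted p of 0.887.

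The Jun family supplies the other arm of AP-1. Jun read 11.65, 12.64 and 12.19 in knockout arrays, against 11.55, 11.60 and 12.24 in wildtype arrays for the brighter of its 2 probe sets. Its other probe set read 9.81, 11.30 and 10.68 in knockout and 9.20, 10.44 and 9.84 in wildtype. In both, knockout replicate 2 was the highest array and wildtype replicate 1 the lowest, and the groups overlapped. The differences were 0.36 (SE 0.30) and 0.77 (SE 0.50). The first was 0.12 when knockout replicate 2 was left out and 0.62 when knockout replicate 1 was.

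Junb, which often restrains what Jun drives, read 8.12, 7.54 and 8.95 in knockout arrays, against 7.41, 7.75 and 7.47 in wildtype arrays. Knockout replicate 3, the array with the highest neutrophil markers, was the highest, and knockout replicate 2 lay within the wildtype range. The difference was 0.66 (SE 0.56, 95% interval -0.66 to 1.99), 0.29 without knockout replicate 3 and 1.00 without knockout replicate 2. The part of neutrophil RNA in the Junb value was not tested. Jund, the Jun family member made most steadily, was nearly level: its brighter probe set read 12.54, 12.60 and 12.36 in knockout arrays, against 12.52, 12.38 and 12.25 in wildtype arrays. The difference was 0.12 (SE 0.12, 95% interval -0.17 to 0.41), and it was 0.05 without wildtype replicate 3. The second Jund probe set, at 6.89, 6.43 and 6.71 in knockout and 6.23, 6.51 and 6.29 in wildtype, differed by 0.33 (SE 0.43).

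For Egr1, Dusp1 and Ier2 the sign of the difference depended on single arrays. Egr1, which curbs stem cell proliferation and exit from the niche in mice, read 13.13, 12.99 and 12.61 in knockout arrays, against 12.82, 12.82 and 12.95 in wildtype arrays. The knockout arrays lay on both sides of the wildtype arrays, and the difference was 0.04 (SE 0.14, 95% interval -0.29 to 0.38). It was -0.067 without knockout replicate 1 and 0.19 without knockout replicate 3. Dusp1 read 11.72, 11.86 and 11.48 in knockout arrays, against 11.46, 11.66 and 12.09 in wildtype arrays. Its knockout values fell inside the wildtype range, with a difference of -0.05 (SE 0.22, 95% interval -0.56 to 0.46) that ran from -0.19 to 0.13 when single arrays were left out. Ier2, a small nuclear protein of the early serum response, read 9.90, 9.38 and 10.33 in knockout arrays, against 9.87, 9.30 and 10.88 in wildtype arrays. Replicate 2 was low and replicate 3 high in both groups, although the numbers do not pair the samples. The Ier2 difference was -0.15 (SE 0.51, 95% interval -1.37 to 1.07), the least stable of these. Leaving out wildtype replicate 2 gave -0.51, knockout replicate 3 -0.38, knockout replicate 2 0.10 and wildtype replicate 3 0.28.

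**Figure D2:**
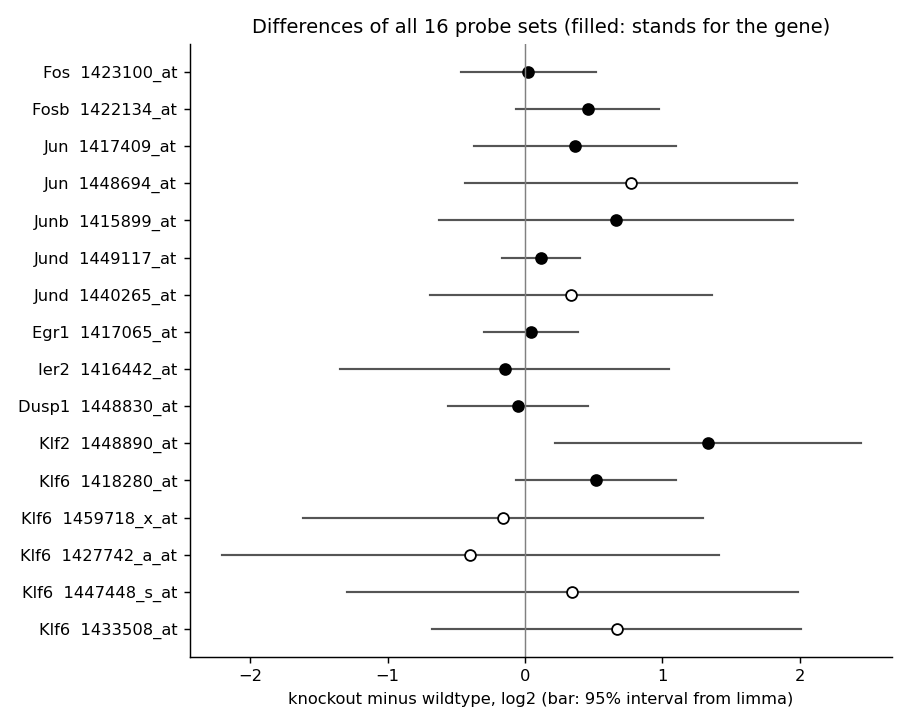
Knockout minus wildtype on the log2 scale for all 16 probe sets of the 10 genes, with 95% intervals from the limma fit over all probe sets; filled points stand for the gene. Only the interval of Klf2 lies wholly above 0 before adjustment, and 2 of the 5 Klf6 probe sets lie below 0.

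Tested as probe sets rather than genes, 0 of the 16 passed, beside 0 of 45037 (0%) and 2115 at an unadjusted p under 0.05 (4.7%). The smallest adjusted p among them was 0.907. Of the 16 differences 12 were above 0, and the 4 below 0 belonged to Dusp1, Ier2 and Klf6.

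The spread between arrays differed from member to member. The within-group SD was smallest for Jund, at 0.13, and largest for Ier2, at 0.66. Egr1 had 0.20, Dusp1 0.27, Fosb 0.28 and Fos 0.29. The median over the 10 members was 0.30, beside 0.50 over all genes. The SD that limma fits for genes of a given level was 0.13 at the level of Egr1 and 0.86 at that of Junb, so each member was also set against the fitted value at its own level. By it 3 members, Junb, Jund and Klf2, lay under the fitted value, beside 8251 of 18193 genes (45.4%). Fos had an SD 1.58 times the fitted value, Egr1 1.497 times and Jun 1.99 times. The knockout SD was above the wildtype SD in 4 of 10 members, beside 11064 of 18193 genes and 1173 of the 1820 above the 90th percentile of level. Egr1 had 0.27 in knockout and 0.07 in wildtype, while Ier2 had 0.48 in knockout and 0.80 in wildtype; 3 arrays a group leave each SD uncertain, and no test of the spread was made.

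**Figure D3:**
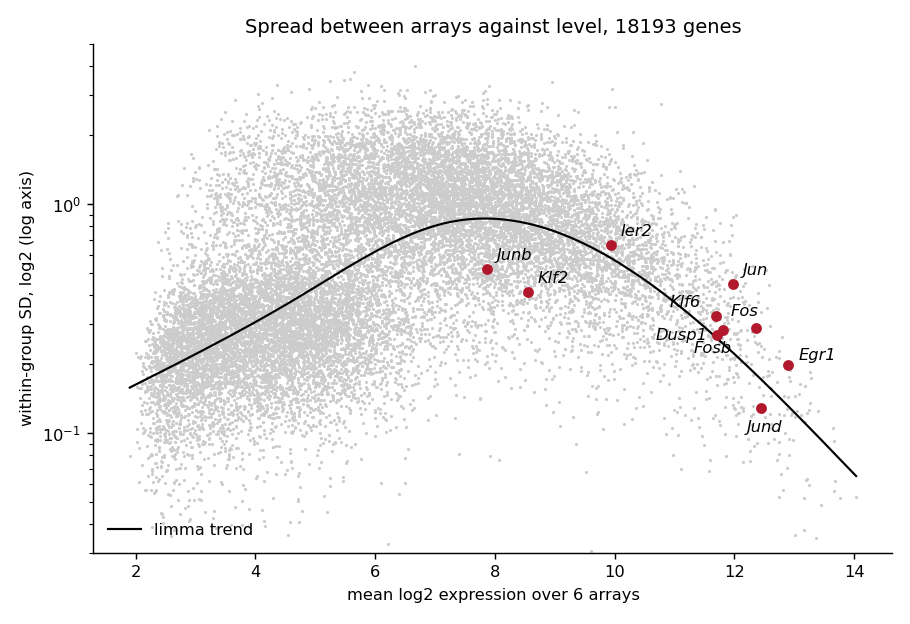
Within-group SD (log axis) against mean log2 level for 18193 genes in grey, with the 10 immediate-early genes in red and limma's fitted trend as a line. Jund, Junb and Klf2 lie under the line, and Jun, Fos and Egr1 lie farthest above it for their level.

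By array, the members were lowest in wildtype replicate 1. The members' median deviation from each gene's mean over 6 arrays was 0.19, 0.15 and 0.01 in the knockout arrays and -0.37, -0.10 and 0.07 in the wildtype arrays, while genes above the median level stayed between -0.04 and 0.05. Wildtype replicate 1 was the lowest wildtype array for 6 members (Fos, Jun, Junb, Egr1, Dusp1 and Klf6) and wildtype replicate 3 the highest for 6. Knockout replicate 3 was the lowest knockout array for 6 members (Fos, Fosb, Jund, Egr1, Dusp1 and Klf6). It was the highest for Junb and Ier2.

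A further 13 immediate-early transcription factors followed another order of arrays. Their median deviations were 0.33, 0.66 and -0.55 in the knockout arrays and -0.47, 0.31 and -0.11 in the wildtype arrays, with knockout replicate 3 the lowest. Their median SD was 0.72, beside 0.30 for the members, but limma's fitted SD at their levels was also higher, with a median of 0.69, beside 0.25 for the members. Relative to the fitted value at its own level the median ratio was 1.34 for these factors and 1.14 for the members, and this difference was not tested. Knockout replicate 3 was above the gene's mean for 1 of the 13, Fosl1. Atf3, a stress-induced factor of the CREB family, singled out after its values were seen, read 7.67, 8.22 and 5.95 in knockout arrays, against 4.67, 6.75 and 4.65 in wildtype arrays. The groups overlapped through wildtype replicate 2 and knockout replicate 3, and the difference was 1.92 (SE 0.83, adjusted p = 0.887). Klf10, a factor induced early by TGF-beta, went the other way without overlap, at 8.02, 6.70 and 8.45 in knockout arrays, against 10.13, 9.14 and 8.88 in wildtype arrays, a difference of -1.66 (SE 0.66, adjusted p = 0.887). Over the 13 genes 0 passed in either direction, 8 were above 0 and the median was 0.37.

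**Figure D4:**
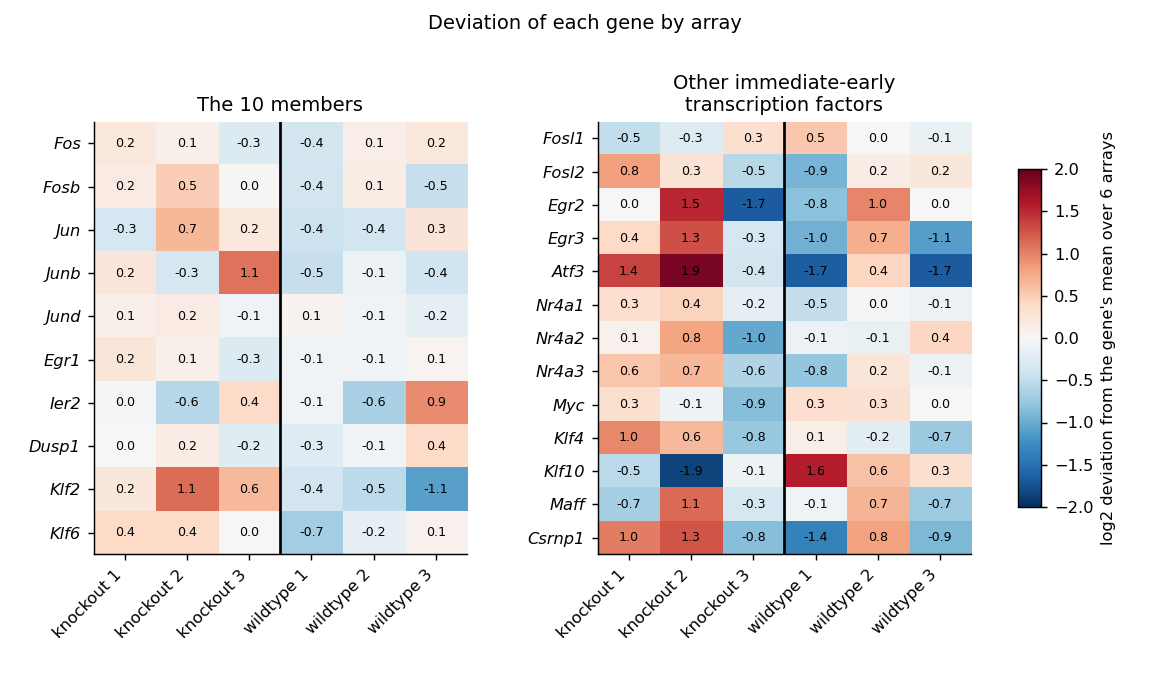
Deviation of each gene from its own mean over 6 arrays (log2; red above, blue below) for the 10 members and 13 other immediate-early transcription factors, knockout arrays left of the black line and wildtype arrays right of it. In the right panel knockout replicate 3 is below the mean for all genes but Fosl1, and wildtype replicates 1 and 3 are low for Atf3, Egr3 and Csrnp1.

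The other parts of the early response were taken as lists. Of 19 further effectors and feedback genes, such as phosphatases, RNA-binding proteins and secreted factors, 0 passed and 7 were above 0, with a median of -0.16. Ccn2, a secreted matrix protein, was the gene without overlap: it read 8.83, 4.43 and 4.41 in knockout arrays, against 3.81, 4.01 and 4.10 in wildtype arrays, so 1 array carried its difference of 1.92 (SE 1.15). Of the upstream kinases and transcription factors 17 of 22 were measured, 0 passed, 13 were below 0 and the median was -0.80. Among genes above the median level, as all 17 are, 4814 of 9096 were below 0 and the median was -0.05. Rps6ka3, the kinase RSK2 that phosphorylates CREB and serum response factor, was lower without overlap, with 9.14, 7.93 and 8.10 in knockout arrays, against 9.91, 10.96 and 9.86 in wildtype arrays (difference -1.85, SE 0.54, adjusted p = 0.887). The members' own median was 0.24, and its contrast with the upstream list was not tested.

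Partner and family genes gave no call either. Of 6 other AP-1 family partners 0 passed and the median was -0.20. Jdp2, a repressive partner of Jun, differed by 1.15 (SE 0.68), and Batf, which joins Jun and interferon regulatory factors on shared sites in lymphocytes, by -0.88 (SE 0.73). Of 10 other Krüppel-like factors 0 passed and 7 were below 0. Klf13 was higher without overlap at 9.13, 8.55 and 8.98 in knockout arrays, against 8.03, 8.50 and 7.98 in wildtype arrays. Klf1, an erythroid factor, was lower at 4.26, 4.75 and 7.23 in knockout arrays, against 7.40, 7.91 and 7.56 in wildtype arrays. The 4 measured erythroid markers, Klf1 among them, were all below 0 with a median of -1.50; they averaged 4.18, 5.15 and 5.29 in knockout arrays and 7.04, 6.12 and 5.63 in wildtype arrays, and the part of erythroid RNA in the Klf1 value was not tested. Klf10, given above, is also on this list and was the other factor lower without overlap.

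Genes that bear on sort stress and on the resting state were read beside the members. Chaperones known to be induced when cells are dissociated had a median of -0.21 over 10 measured genes, with 0 called. Of the 10, 7 had a mean level above that of the median gene, among them Dnajb1, which read 10.80 to 11.82. Hspa1a, an inducible HSP70 singled out with Hspa1b after their values were seen, read 2.33 to 2.42 in knockout arrays and 2.12 to 2.43 in wildtype arrays, under the median gene level of 5.81 on all 6 arrays. Hspa1b, its twin, read 3.51, 5.25 and 3.21 in knockout arrays, against 6.11, 4.25 and 8.40 in wildtype arrays. Hspa8, the constitutive HSP70, was higher without overlap by 0.23 (SE 0.08), and Hsp90aa1 and Hspe1 were lower without overlap by -0.68 (SE 0.26) and -0.30 (SE 0.15), each with an adjusted p of 0.887. Of 12 stem cell quiescence genes 0 passed, 8 were below 0 and the median was -0.57. Tob1, an antiproliferative protein named after its values were seen, was the list's gene with an unadjusted p under 0.05 and lay the other way, at 5.97, 5.39 and 4.43 in knockout arrays, against 4.05, 4.55 and 3.74 in wildtype arrays, a difference of 1.15 (SE 0.44, adjusted p = 0.887). The groups overlapped through knockout replicate 3 and wildtype replicate 2, and the mean level of Tob1, 4.69, was under the median gene level. Tcf15, a factor of quiescent stem cells, was lower without overlap, with 5.68, 5.78 and 6.73 in knockout arrays, against 6.95, 6.95 and 8.36 in wildtype arrays. Of 15 measured proliferation genes 0 passed and the median was -0.27, with the replication clamp Pcna lower without overlap by -0.86 (SE 0.24). The quiescence genes had median deviations of 0.46, -0.18 and -0.91 in knockout arrays and of 0.14 to 0.21 in wildtype arrays, so their lowest array, knockout replicate 3, was not the members' lowest, wildtype replicate 1. Of 6 other markers of long-term stem cells 5 were below 0, with a median of -0.41, and Procr, a stem cell surface receptor, was lower without overlap by -0.75 (SE 0.36). These markers averaged 9.22, 8.85 and 8.04 in knockout arrays and 9.32, 9.15 and 9.04 in wildtype arrays, lowest in knockout replicate 3, the array with the highest neutrophil markers. The part of other cells in the quiescence values was not tested.

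**Figure D5:**
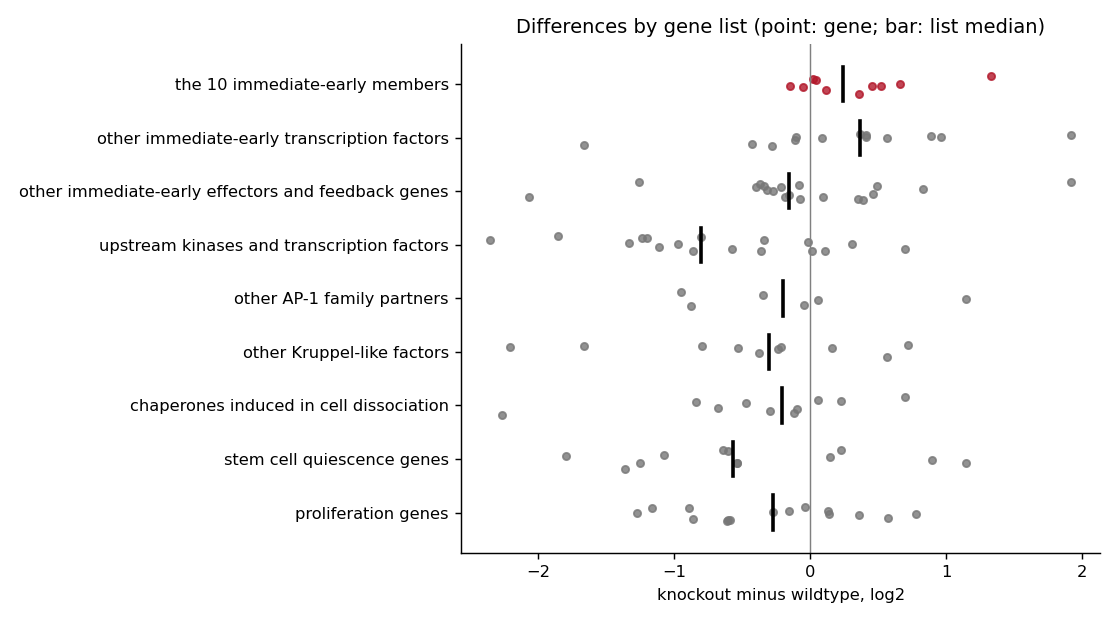
Knockout minus wildtype on the log2 scale by gene list, each point a gene and each black bar the list's median. The 10 members lie between -0.15 and 1.33 around a median of 0.24, and the upstream list has the lowest median, -0.80.

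Among 9086 other genes above the median level, the 5 whose values over the 6 arrays were most like the members' mean standardised profile were Fam20b, Rab27a, Dnajc14, Cenpn and Gm10336. Their Pearson correlations with it ran from 0.97 to 0.98 over 6 arrays, a description that follows 1 profile through few points. In all 5 wildtype replicate 1 was the lowest of the 6 arrays and knockout replicate 1 or 2 the highest, as in the members' mean profile. This likeness follows from how the 5 were chosen and adds no further observation. Fam20b, a xylose kinase of proteoglycan synthesis, read 6.87, 7.14 and 6.22 in knockout arrays, against 5.52, 6.16 and 6.57 in wildtype arrays.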

How the data were processed

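RNA of 6 sorted stem cell samples was amplified and read on arrays, per the labels' protocols. The authors deposited log2 expression for each probe set. Tools named are Partek, Expression Console and RMA, with no version or setting, per the submitters' processing notes. RMA compresses differences of dim probe sets. Of 45037 probe sets 34945 named 1 gene, 932 several and 9160 none; 34741 matched RefSeq by Entrez number. The single-gene probe set with the highest mean stood for each of 18193 genes, with no filter on level. Knockout was compared with wildtype, without a replicate block, in limma 3.58.1 (R 4.3.3) with a mean-variance trend, two-sided, Benjamini-Hochberg adjusted over all genes or all probe sets. The fit was tested on simulated data. Python 3.11.15, pandas 2.3.3 and matplotlib 3.10.9 made tables and figures. The members and lists were chosen with earlier results of these data known. Genes were named by rule, with exceptions: all members, Irf8, list genes without overlap or else the 2 with the smallest p, and the 5 nearest patterns. Others were named outside the rule after their values were seen, among them Atf3, Hspa1a, Hspa1b and Tob1. Of the cell type markers only some are named, and not all by that rule. Promoters of 8 of 10 members matched by symbol; the genes not measured in a list are not analysed here. Alternatives covered moderation, array weights, probe set choice, scaling, a level filter, a term for replicate number, a term for sex as read from Xist (labels give none), and omission of single arrays.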

Additional observations from a re-analysis of the deposited data

How the results depend on the processing

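With 6 arrays an uncalled difference does not show equal levels. In all 15 alternatives 0 members were called, with limma's own adjusted p for Klf2 between 0.759 and 0.986; the members' median difference lay between 0.11 and 0.31. Over all genes 1 was called with the mean of probe sets, 1 with median centring and, leaving out 1 array at a time, 0 to 1; probe sets gave 0 calls in the settings run. Members without overlap numbered 2 with the mean of probe sets (Jund and Klf2) and 1 to 5 leaving out 1 array, when 19.0 to 24.0% of all genes did not overlap either; without knockout replicate 3 they were Fosb, Jund, Egr1, Klf2 and Klf6. Of 150 member differences 9 changed sign: Dusp1 was 0.030 with array weights, and the other 8 came from leaving out 1 array, when Dusp1 ranged from -0.19 to 0.13, Fos from -0.16 to 0.17, Egr1 from -0.067 to 0.19 and Ier2 from -0.51 to 0.28. The cause was not tested. Same-numbered samples did not deviate together (correlations -0.02, -0.01 and -0.01 across genes), and with the replicate block 0 genes were called and the members' median difference was 0.24.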
